A study of Saccharomyces cerevisiae with 6 samples.

Results

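The mRNAs of the *CLN1*, *CLN2* and *CLN3* genes, of *CLB1* to *CLB6* and of *SIC1*, which encode the cyclins that drive the budding yeast cell cycle through the kinase Cdc28 and one of its inhibitors, were followed in *Saccharomyces cerevisiae* cells shifted to new carbon sources. These 10 genes were taken by name, and each has 1 row among the 6687 features of the deposited mRNA-Seq table. All cells were of strain BY4741, a haploid laboratory strain, and all carried a pCM190 plasmid, in which a doxycycline-repressed *tetO7* promoter drives the insert. Cells overexpressing *PPZ1* carried the plasmid with the coding region of this Ser/Thr protein phosphatase gene, and control cells carried it empty. The promoter was kept off overnight with 100 µg/ml of doxycycline. Without the drug, the cultures then grew for 3.5 h, between an OD600 of 0.2 and 0.55. They were filtered and kept for 1 h in fresh medium without uracil. Its carbon source was 0.25% glucose, 2% galactose or 2% glucose, which gave 6 conditions with 1 library each. The labels name no synchronization of the cultures, and in such bulk RNA fewer cells in a phase of the cycle and less mRNA per cell cannot be told apart.

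In yeast, the G1 cyclin Cln3 with Cdc28 starts a new cycle by relieving the inhibition of the transcription factors SBF and MBF, which then switch on *CLN1* and *CLN2*, for cyclins that commit the cell to division, and *CLB5* and *CLB6*, for cyclins that start DNA replication. Clb3 and Clb4 act next, in S phase and spindle formation. Clb1 and Clb2 are the mitotic cyclins, and their genes are read late in the cycle with the help of Mcm1 and forkhead proteins. Sic1 binds and blocks the kinases with Clb cyclins until Cln cyclins mark it for destruction, and its gene is switched on as cells leave mitosis by Swi5. Cyclin mRNA levels also follow the growth rate and the nutrient supply.

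The 10 coding sequences lie on 6 chromosomes of assembly R64 and have the same start and end in the deposited table. *CLN1* (YMR199W) is at chrXIII:662644-664284 on the forward strand, *CLN2* (YPL256C) at chrXVI:64977-66614 on the reverse strand and *CLN3* (YAL040C) at chrI:65778-67520 on the reverse strand. *CLB1* (YGR108W, chrVII:703636-705051, forward) and *CLB6* (YGR109C, chrVII:705359-706501, reverse) face each other with 307 bases between their coding ends. *CLB2* (YPR119W, chrXVI:771653-773128, forward) and *CLB5* (YPR120C, chrXVI:773875-775182, reverse) do so with 746 bases between them. *CLB3* (YDL155W) is at chrIV:176773-178056, *CLB4* (YLR210W) at chrXII:562008-563390 and *SIC1* (YLR079W) at chrXII:286820-287674, all on the forward strand. A feature of the table is a coding sequence with 50 bases on each side. No other feature overlapped any of the 10, on either strand. The coding sequences of the related pairs were identical at 67.5% of aligned bases for *CLN1* and *CLN2*, 68.5% for *CLB1* and *CLB2*, 64.8% for *CLB3* and *CLB4*, and 64% for *CLB5* and *CLB6*. None of the 50-base stretches of the 10 features occurred elsewhere in the genome, and the longest stretch shared within a pair was 17 bases.

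The sequences before *CLN1*, *CLN2* and *CLB6* are shown because these promoters hold recognition motifs of SBF or MBF close to each other. The motifs were chosen after the values of the genes had been seen. The 700 bases before each start codon of R64 were searched on both strands for CNCGAAA, the SBF motif, and for ACGCGT, the MBF motif. The matches are in capitals, each stretch reads 5′ to 3′ on the strand of its gene, and a match is a description of letters, not a measured site.

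*CLN1*, chrXIII:662184-662223, forward strand, 460 to 421 bases before the start codon: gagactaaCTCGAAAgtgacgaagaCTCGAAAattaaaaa

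*CLN2*, chrXVI:67138-67228, reverse strand, 614 to 524 bases before the start codon: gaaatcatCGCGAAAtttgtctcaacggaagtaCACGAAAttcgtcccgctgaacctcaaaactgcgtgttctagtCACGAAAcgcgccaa

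*CLB6*, chrVII:706865-706912, reverse strand, 411 to 364 bases before the start codon: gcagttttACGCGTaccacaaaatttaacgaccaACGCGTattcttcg

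*CLN2* had 3 SBF motifs, a number that 0.550% of the 5999 promoters searched reached or passed, and no MBF motif. *CLB6* had 2 MBF motifs, and 0.700% of promoters had as many or more. *CLN1* had 2 SBF motifs, a number that 4.30% of promoters reached or passed, and 1 MBF motif 606 to 601 bases before the start codon. At least 1 SBF motif was found in 27.3% and at least 1 MBF motif in 6.98% of all promoters. *CLB4* had 2 SBF motifs, which lie farther apart, between 698 and 377 bases before the start codon, and *CLB1* and *SIC1* had 1 each. The motif GTAAACA of the forkhead factors, present in 13.6% of promoters, occurred once before each of *CLB1*, *CLB4* and *CLB6*. The letters ACCAGC, read by Swi5 and present in 20.3% of promoters, occurred before *CLB4* and *CLB5*. *CLN3*, *CLB2* and *CLB3* held none of the 4 motifs searched.

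The libraries held between 1845237 reads in features (cells overexpressing *PPZ1* in 0.25% glucose) and 6784469 (control cells in 0.25% glucose), and the other 4 between 3673635 and 5644263. Levels are given in CPM, counts per 1000000 reads in features on the authors' scaling. Levels are followed by 95% exact Poisson intervals or log2 changes by counting standard errors, both of which cover the counting of reads only, since no condition was repeated. Log2 changes were taken after adding 1 CPM, for features with a mean of at least 10 CPM in the libraries compared, and a change is called here when it reaches 2-fold. *PPZ1* mRNA stood at 17798, 2705 and 12538 CPM in cells overexpressing it in 0.25% glucose, galactose and 2% glucose, against 94.3, 75.0 and 78.8 CPM in control cells. The overexpression was thus present in all 3 media, and lower in galactose. No read in any library fell on *MET17*, a gene that BY4741 lacks. *GAL1*, for galactokinase, stood at 30.2 and 27.5 CPM in galactose in cells overexpressing *PPZ1* and in control cells, against 9.89 and 10.2 CPM in 2% glucose. *GAL10* stood at 19.2 and 20.2 CPM in galactose, against 2.42 and 2.80 CPM in 2% glucose. *HXT1*, for a low-affinity glucose transporter, stood at 7.38 and 16.4 CPM in 0.25% glucose and 121 and 147 CPM in galactose, against 295 and 328 CPM in 2% glucose.

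Levels of different genes are compared per kb of feature. In control cells in 2% glucose, *CLB1* (100 CPM per kb, 93.8 to 107), *CLN2* (96.6, 90.6 to 103) and *CLN1* (89.8, 84.0 to 95.9) were the most abundant, and neighbours in this order had overlapping intervals. *CLB3* (64.8 CPM per kb), *CLB2* (57.0) and *SIC1* (53.9) followed, again with overlapping intervals between neighbours. *CLN3* was lower (42.3 CPM per kb, 38.4 to 46.4). The least abundant were *CLB5* (30.0), *CLB4* (26.3) and *CLB6* (25.8 CPM per kb), whose intervals overlapped. In cells overexpressing *PPZ1* in the same medium, *CLN2* came first with 96.6 CPM per kb and *CLB6* last with 20.3.

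**Figure D1:**
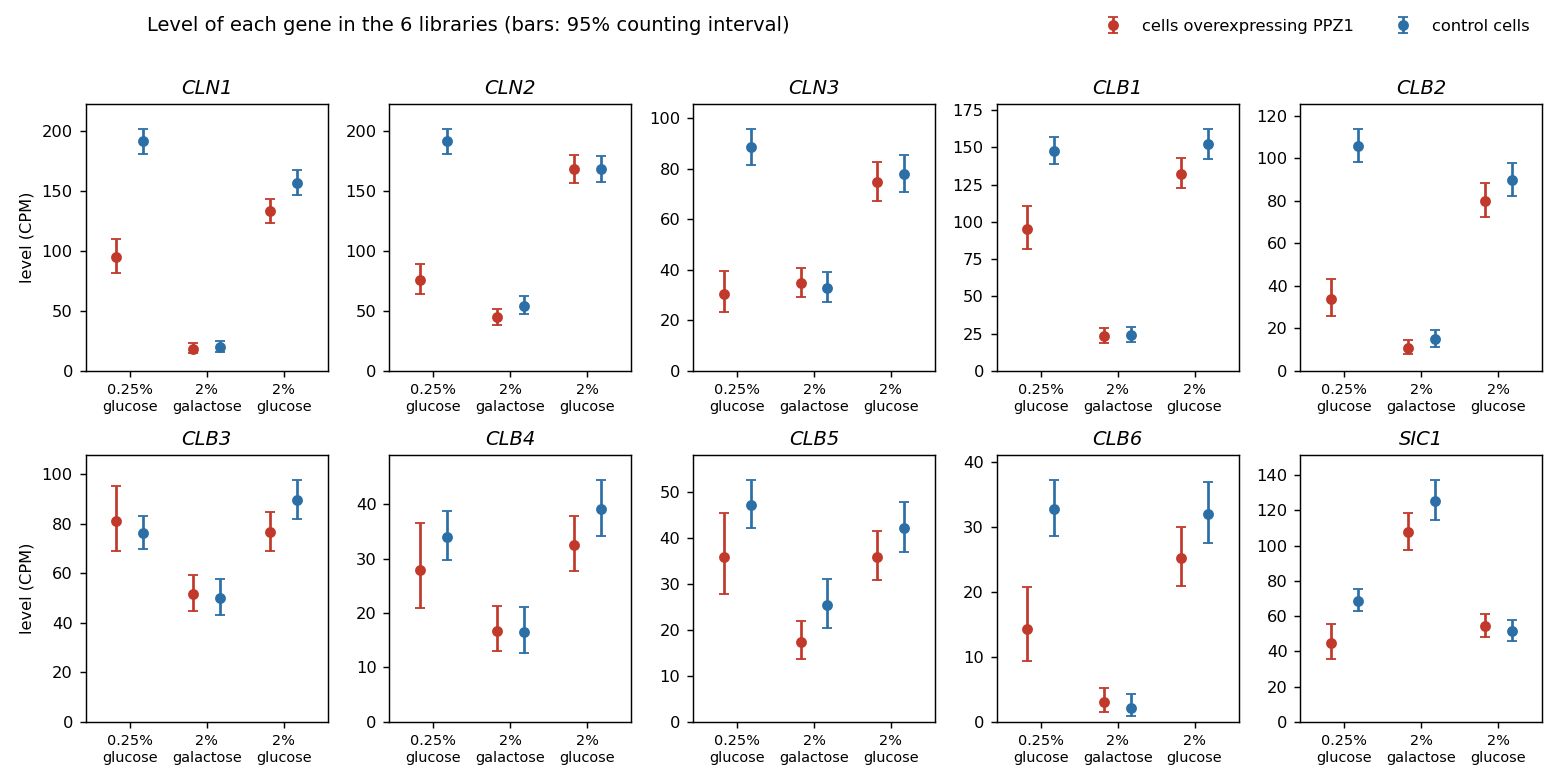
Level in CPM of each of the 10 genes in the 6 libraries, with cells overexpressing *PPZ1* in red and control cells in blue at each carbon source; bars are 95% counting intervals and each panel has its own axis from 0. The galactose points are the lowest of their panel in both strains for *CLN1*, *CLN2*, *CLB1* to *CLB6*, and the highest for *SIC1* (108 and 125 CPM), while *CLN3* is lowest in cells overexpressing *PPZ1* in 0.25% glucose (30.6 CPM).

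In galactose the mRNAs of all 9 cyclins were less abundant than in 2% glucose, that of *SIC1* was more abundant, and both strains showed this. The question of this comparison was how cells remodel their mRNAs when galactose replaces glucose, and whether an excess of Ppz1 changes that. As the galactose medium held no glucose, the loss of glucose and the presence of galactose cannot be told apart. In the additive model of plasmid and carbon source over the 6 libraries, which takes differences between the strains' responses as error, all 9 cyclin mRNAs fell and *SIC1* rose in galactose against 2% glucose. The calls are those of edgeR's quasi-likelihood test at a Benjamini-Hochberg adjusted p of at most 0.05. Over all 5386 features tested, 32.8% were called lower and 32.9% higher in this comparison. On the 2-fold scale, 7 of the 10 mRNAs were lower and none was higher in cells overexpressing *PPZ1*, where 21.1% of features were lower and 19.8% higher. In control cells 7 were lower and 1 was higher, where 19.7% of features were lower and 23.0% higher. With upper-quartile scaling, the calls over all features came to 927 higher and 1374 lower in cells overexpressing *PPZ1* and 986 higher and 1410 lower in control cells, in place of 1063 and 1134, and of 1243 and 1064. The median log2 change of the 10 genes was -1.49 in cells overexpressing *PPZ1* and -1.41 in control cells, beside -0.08 and 0.06 for all features.

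Among the G1 cyclins, *CLN1* had 18.4 CPM (14.5 to 23.1) in galactose, against 133 CPM (123 to 143) in 2% glucose, in cells overexpressing *PPZ1*. In control cells it had 19.7 CPM (15.4 to 24.8) in galactose, against 156 CPM (146 to 167) in 2% glucose. The log2 changes were -2.78 ± 0.17 and -2.93 ± 0.17, values below which lay 0.35% and 0.19% of features. In the additive model *CLN1* fell by 2.89 on the log2 scale (edgeR quasi-likelihood test, adjusted p = 1.34e-05).

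*CLN2*, the partner of *CLN1* in starting the cycle, was lower by less. Its level was 44.6 CPM (38.3 to 51.6) in galactose, against 168 CPM (157 to 180) in 2% glucose, in cells overexpressing *PPZ1*. For control cells the values were 54.2 CPM (47.0 to 62.3) in galactose and 168 CPM (157 to 179) in 2% glucose. The log2 changes were -1.89 ± 0.12 and -1.61 ± 0.11. The test of the additive model gave a fall of 1.76 (edgeR quasi-likelihood, adjusted p = 0.000444). *CLN2* made up 70.8% (exact binomial interval 64.7 to 76.3) and 73.4% (67.7 to 78.5) of the reads of *CLN1* and *CLN2* together in galactose, against 55.8% (53.3 to 58.4) and 51.8% (49.5 to 54.1) in 2% glucose, in cells overexpressing *PPZ1* and in control cells. The intervals of the 2 media did not overlap in either strain.

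*CLN3*, for the most upstream of the G1 cyclins, was the least lowered of the 3. In cells overexpressing *PPZ1* it had 34.6 CPM (29.1 to 40.9) in galactose, against 74.9 CPM (67.4 to 82.9) in 2% glucose. In control cells it had 32.9 CPM (27.3 to 39.3), against 77.9 CPM (70.8 to 85.5). The log2 changes were -1.09 ± 0.14 and -1.22 ± 0.14, just past 2-fold, and the additive model gave a fall of 1.14 (edgeR quasi-likelihood, adjusted p = 0.0105). The share of *CLN3* in the summed CPM per kb of the 3 *CLN* genes was 34.1% and 29.6% in galactose, against 19.0% and 18.5% in 2% glucose, in cells overexpressing *PPZ1* and in control cells.

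The genes of the S phase cyclins Clb5 and Clb6 differed in how far they fell. *CLB6* had 2.99 CPM (12 reads) in galactose, against 25.2 CPM (125 reads) in 2% glucose, in cells overexpressing *PPZ1*. In control cells it had 2.16 CPM (8 reads) in galactose, against 32.0 CPM (183 reads). The log2 changes were -2.72 ± 0.34 and -3.39 ± 0.36, and in control cells 0.06% of features lay below *CLB6*. *CLB5* had 17.4 CPM (13.6 to 22) in galactose, against 35.9 CPM (30.8 to 41.6) in 2% glucose, in cells overexpressing *PPZ1*, and 25.4 CPM (20.5 to 31.0), against 42.2 CPM (37.0 to 47.9), in control cells. Its log2 changes of -1.0 ± 0.19 and -0.71 ± 0.17 lie on either side of the 2-fold threshold. In the additive model *CLB6* fell by 3.42 and *CLB5* by 0.86 (edgeR quasi-likelihood, adjusted p = 5.78e-05 and 0.00371). *CLB6* gave 14.6% (7.80 to 24.2) and 7.84% (3.45 to 14.9) of the reads of the pair in galactose, against 41.3% (35.7 to 47.0) and 43.2% (38.4 to 48.0) in 2% glucose, in cells overexpressing *PPZ1* and in control cells.

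*CLB3* and *CLB4* encode the cyclins of S phase and the early spindle. *CLB3* had 51.6 CPM (44.8 to 59.1) and 49.9 CPM (43.0 to 57.7) in galactose, against 76.5 CPM (69.0 to 84.6) and 89.6 CPM (82.0 to 97.7) in 2% glucose, in cells overexpressing *PPZ1* and in control cells. Its log2 changes, -0.56 ± 0.12 and -0.83 ± 0.12, stayed under 2-fold, although the additive model called a fall of 0.69 (edgeR quasi-likelihood, adjusted p = 0.0131). *CLB4* had 16.7 CPM (12.9 to 21.2) and 16.5 CPM (12.6 to 21.1) in galactose, against 32.5 CPM (27.7 to 37.9) and 39.0 CPM (34.1 to 44.5) in 2% glucose, in the same order of strains. Its log2 changes were -0.92 ± 0.20 and -1.20 ± 0.20, with a fall of 1.08 in the additive model (edgeR quasi-likelihood, adjusted p = 0.00178). The share of *CLB4* in the reads of the pair, between 24.5% and 30.9% in the 6 libraries, had overlapping intervals in all of them.

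The mitotic cyclin genes were lower by about as much as *CLN1*. *CLB1* had 23.4 CPM (18.9 to 28.7) in galactose, against 132 CPM (122 to 143) in 2% glucose, in cells overexpressing *PPZ1*, and 23.7 CPM (19.0 to 29.3), against 152 CPM (142 to 163), in control cells. *CLB2*, which encodes the main mitotic cyclin, had 10.7 CPM (7.75 to 14.4) in galactose, against 79.9 CPM (72.2 to 88.2) in 2% glucose, in cells overexpressing *PPZ1*, and 14.8 CPM (11.2 to 19.3), against 89.8 CPM (82.2 to 97.9), in control cells. The log2 changes of *CLB1* were -2.45 ± 0.15 and -2.63 ± 0.16, and those of *CLB2* -2.79 ± 0.21 and -2.52 ± 0.19. All 4 values were among the lowest 1% of features, with 0.76% and 0.33% of features below *CLB1* and 0.33% and 0.52% below *CLB2*. The log2 changes in the additive model were -2.56 and -2.75 (edgeR quasi-likelihood, adjusted p = 1.12e-05 and 7.94e-05). *CLB1* and *CLB2* together made up 26.0% and 27.3% of the summed CPM per kb of the 6 *CLB* genes in galactose, against 52.9% and 51.7% in 2% glucose, in cells overexpressing *PPZ1* and in control cells.

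*SIC1*, for the inhibitor, went the other way. It had 108 CPM (97.7 to 118) in galactose, against 54.5 CPM (48.2 to 61.4) in 2% glucose, in cells overexpressing *PPZ1*. In control cells it had 125 CPM (114 to 137) in galactose, against 51.5 CPM (45.8 to 57.7) in 2% glucose. The log2 changes were 0.97 ± 0.11 and 1.27 ± 0.11, of which only that of control cells passed 2-fold, although that of cells overexpressing *PPZ1* came to 1.01 by the median of ratios. The additive model gave a rise of 1.15 (edgeR quasi-likelihood, adjusted p = 0.000652). Of all features, 79.5% and 81.9% lay below *SIC1*. The summed level of the 9 cyclin mRNAs was 141 and 152 CPM per kb in galactose, against 474 and 533 in 2% glucose, in cells overexpressing *PPZ1* and in control cells. *SIC1* mRNA came to 80.2% and 86.2% of that sum in galactose, against 12% and 10.1% in 2% glucose, per kb of feature.

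**Figure D2:**
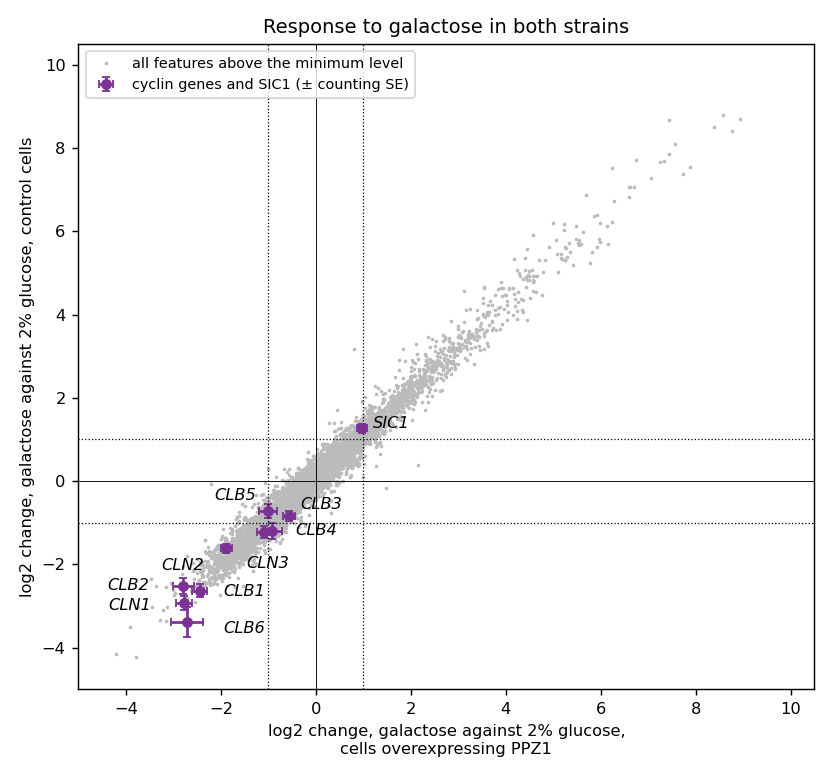
Log2 change in galactose against 2% glucose in cells overexpressing *PPZ1* (x axis) and in control cells (y axis) for all features above the minimum level (grey) and the 10 genes (purple, with counting standard errors); dotted lines mark 2-fold. *CLN1*, *CLB1*, *CLB2* and *CLB6* form a group between -3.39 and -2.45 near the lower end of all features, and *SIC1* is the only one of the 10 above 0.

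The difference between the responses of the strains to galactose, cells overexpressing *PPZ1* minus control cells, ran between -0.30 ± 0.15 (*SIC1*) and 0.67 ± 0.50 (*CLB6*), with a median of -0.11 over all features. None of the 10 responses differed by 2-fold, and of all features 0.466% were that much lower and 0.056% that much higher. Each of these values rests on 4 libraries, and no replicate gives their error.

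Other cell cycle genes are described by lists that were drawn up with results of these data already known. Their counts of calls stand beside the 32.8% of all features that the additive model called lower and the 32.9% it called higher. Of 22 targets of SBF and MBF tested, the additive model called 19 lower and 1 higher in galactose, and the median log2 change was -1.58 in cells overexpressing *PPZ1* and -1.68 in control cells. The farthest from 0 were *PCL1*, for a cyclin of the kinase Pho85 that acts in G1 (-3.79 ± 0.26 and -4.23 ± 0.29), and *RNR1*, for the large subunit of ribonucleotide reductase (-3.21 ± 0.09 and -3.10 ± 0.09). *RNR1* had 60.8 and 72.9 CPM in galactose, against 572 and 633 CPM in 2% glucose. Of 16 genes of the *CLB2* cluster, which are read together in G2/M, 13 were called lower and none higher, with medians of -1.29 and -1.17. Among them *SWI5*, for an activator of *SIC1*, had log2 changes of -1.37 ± 0.15 and -1.79 ± 0.15, and *CDC5*, for the polo kinase, -1.67 ± 0.14 and -1.75 ± 0.13.

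The *SIC1* cluster holds 15 genes that are switched on at the end of mitosis. The additive model called 4 of them higher and 4 lower, in each direction a smaller share than of all features, and their median log2 change was -0.28 in cells overexpressing *PPZ1* and 0.06 in control cells. *RME1*, for a repressor of meiosis (1.26 ± 0.12 and 1.18 ± 0.11), and *DSE3*, for a daughter cell protein (1.09 ± 0.12 and 1.30 ± 0.12), passed 2-fold in both strains. Of the 9 genes of the MCM cluster, read between M and G1, 7 were called lower and none higher, and *CDC6*, which loads the replicative helicase, had log2 changes of -3.36 ± 0.36 and -2.52 ± 0.33.

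Among Cdc28 and its direct regulators, 5 of 8 were called lower and 2 higher. *FAR1*, for the pheromone-induced inhibitor of Cln kinases, was lower with the cyclins (-3.44 ± 0.19 and -3.02 ± 0.17), whereas *MIH1*, for the phosphatase that activates Cdc28, was higher (1.12 ± 0.15 and 1.54 ± 0.15). *CDC28* itself had log2 changes of -0.36 ± 0.13 and -0.58 ± 0.13. Of the 11 transcription factors and regulators of G1/S, 4 were called lower and 3 higher. *XBP1*, for a repressor whose targets include *CLN1*, had 133 and 135 CPM in galactose, against 19.2 and 15.8 CPM in 2% glucose, with log2 changes of 2.74 ± 0.15 and 3.02 ± 0.16. *AZF1*, for an activator of *CLN3* in glucose, had log2 changes of 1.60 ± 0.15 and 1.69 ± 0.14.

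The 4 factors of G2/M split, with 2 called lower and none higher: *FKH1* had log2 changes of -1.90 ± 0.18 and -1.50 ± 0.16 and *FKH2* of -1.36 ± 0.15 and -1.11 ± 0.13. The ubiquitin ligases and the phosphatase that act on cyclins and Sic1 gave 4 called higher and 3 lower of 16, again a smaller share in each direction than of all features. Past 2-fold in both strains, *CDC34*, for the enzyme that with the SCF ligase marks Sic1 for destruction, had log2 changes of 1.39 ± 0.09 and 1.48 ± 0.08, and *CDC27*, for a subunit of the ligase that destroys mitotic cyclins, 1.57 ± 0.13 and 1.57 ± 0.12. So were *DOC1*, for another subunit (1.04 ± 0.28 and 1.75 ± 0.28), and, on the lower side, *CDC20*, for an activator of that ligase (-1.45 ± 0.19 and -1.15 ± 0.18). Among 14 cyclins of other kinases 6 were called higher and 4 lower. *PCL8*, for a Pho85 cyclin that acts on glycogen synthesis, was higher (1.65 ± 0.16 and 1.80 ± 0.16) in the medium in which *PCL1* was lower.

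**Figure D3:**
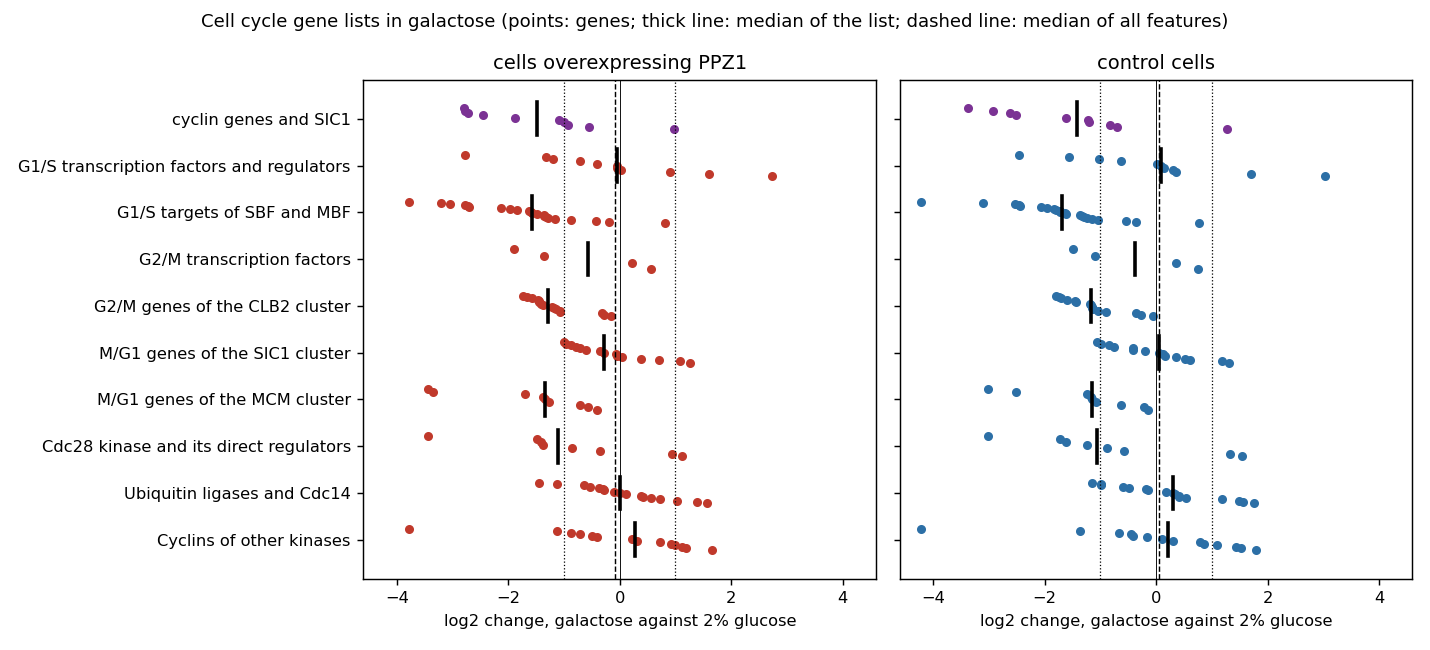
Log2 change in galactose against 2% glucose of each gene of 9 cell cycle lists and of the 10 genes (purple), in cells overexpressing *PPZ1* (left) and control cells (right); thick bars are list medians and the dashed line is the median of all features. The targets of SBF and MBF (medians -1.58 and -1.68) and the *CLB2* cluster (-1.29 and -1.17) lie left of the dashed line, and the *SIC1* cluster (-0.28 and 0.06) lies near it.

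In 0.25% glucose, 9 of the 10 mRNAs had lower values with an excess of *PPZ1*, though for *CLB4* within counting error, and that of *CLB3* did not. Lower values were also found for 3409 of the 5243 features compared. By the median of ratios *CLB4* had 30.7 CPM in cells overexpressing *PPZ1*, against 31.4 CPM in control cells. This comparison addressed how an excess of Ppz1 alters the adaptation to scarce glucose. In cells overexpressing *PPZ1*, 5 of the 10 mRNAs were at least 2-fold lower than in control cells, and none was higher, while of all features 9.96% were lower and 0.801% higher. These 5 were *CLB2*, *CLN3*, *CLN2*, *CLB6* and *CLN1*. Scaling by the median of ratios in place of the totals left 3 lower and gave 4.31% of features lower and 2.31% higher, or 226 and 121 features in place of 522 and 42. The median difference over all features was -0.24 on the authors' scale and 0.01 by the median of ratios, and that of the 10 genes was -0.81 and -0.56.

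*CLB2* had 33.7 CPM (26.0 to 43.1) in cells overexpressing *PPZ1* in 0.25% glucose, against 106 CPM (98.2 to 114) in control cells, a log2 difference of -1.62 ± 0.18. *CLN3* had 30.6 CPM (23.2 to 39.5), against 88.6 CPM (81.6 to 96.0), and differed by -1.51 ± 0.19. *CLN2* had 75.9 CPM (64 to 89.3), against 191 CPM (181 to 202), and differed by -1.32 ± 0.13. These 3 mRNAs were past 2-fold by more than 1 standard error and stayed past it on the median-of-ratios scale, with -1.37, -1.26 and -1.07. *CLB6* had 14.2 CPM (27 reads), against 32.7 CPM (222 reads), with a difference of -1.15 ± 0.28, and *CLN1* had 94.8 CPM (81.5 to 110), against 191 CPM (181 to 202), with -1.0 ± 0.11. Both ended under 2-fold on the median-of-ratios scale, at -0.90 and -0.75.

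The other 5 mRNAs differed by less. *CLB1* had 95.4 CPM (82.0 to 110) in cells overexpressing *PPZ1*, against 148 CPM (139 to 157) in control cells (log2 difference -0.63 ± 0.12), and *SIC1* had 44.8 CPM (35.8 to 55.4), against 68.7 CPM (62.6 to 75.2) (-0.61 ± 0.17). *CLB5* with 35.8 CPM (27.8 to 45.4), against 47.3 CPM (42.3 to 52.8), and *CLB4* with 27.9 CPM (20.9 to 36.5), against 34.0 CPM (29.8 to 38.7), had overlapping intervals (-0.39 ± 0.19 and -0.28 ± 0.21). *CLB3* was not lower, with 81.1 CPM (68.8 to 95), against 76.2 CPM (69.8 to 83.1), or 0.09 ± 0.13. Of the related pairs, the shares of *CLB1* and *CLB2* had intervals that did not overlap between the strains. *CLB2* was 26.1% (20.7 to 32.1) of the reads of *CLB1* and *CLB2* in cells overexpressing *PPZ1*, against 41.7% (39.4 to 44.1) in control cells. The intervals overlapped for *CLN2*, with 44.4% (39.0 to 50.0) of the reads of *CLN1* and *CLN2*, against 50.0% (48.1 to 52.0), for *CLB6*, with 28.4% (19.6 to 38.6) of those of *CLB5* and *CLB6*, against 40.9% (36.7 to 45.2), and for *CLB4*, with 25.6% (19.8 to 32.1) of those of *CLB3* and *CLB4*, against 30.9% (27.6 to 34.3).

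The library of cells overexpressing *PPZ1* in 0.25% glucose was the smallest, and its difference from control cells followed the length of the feature. Spearman's correlation of the log2 difference with length was -0.69 across 5243 features, which are not independent replicates. The median difference was 0.33 in the shortest 10% and -0.86 in the longest 10% of features, whereas the correlation was -0.12 for the same comparison in galactose and in 2% glucose. The coding sequences of *CLN1*, *CLN2* and *CLN3* are 1641, 1638 and 1743 bases long, and the trend at their lengths was -0.45, -0.45 and -0.49. With the trend subtracted, *CLB2* (-1.27) and *CLN3* (-1.02) remained past 2-fold, where 2.35% of features were lower and 1.24% higher. *CLB6* came to -0.99, *CLN2* to -0.87, *SIC1* to -0.66 and *CLN1* to -0.55, and *CLB3* to 0.36. The part of the trend in the difference between the strains was not tested further.

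**Figure D4:**
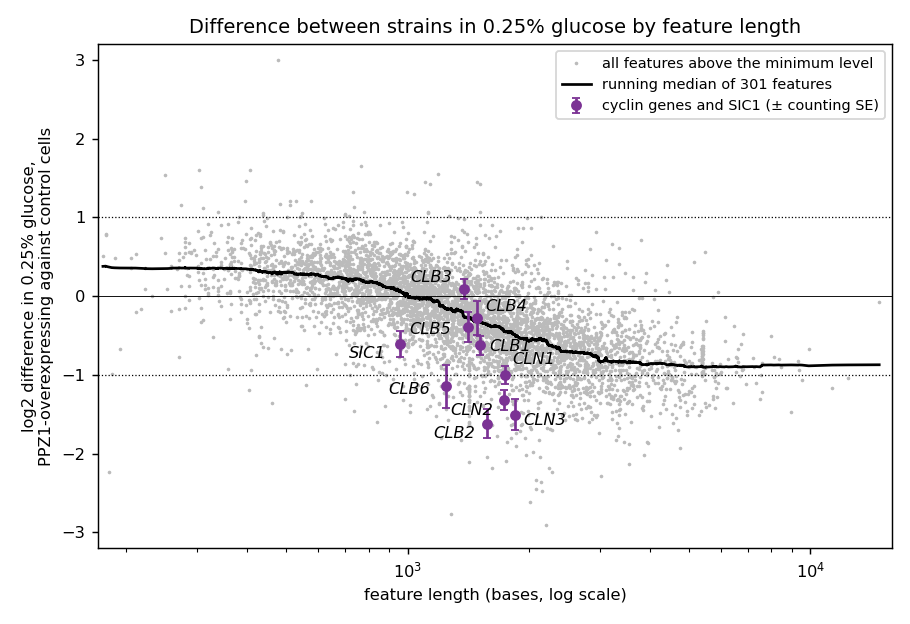
Log2 difference between cells overexpressing *PPZ1* and control cells in 0.25% glucose against the length of the feature in bases (log axis), for all features above the minimum level (grey), their running median (black line) and the 10 genes (purple, with counting standard errors); dotted lines mark 2-fold. *CLB2* at -1.62 lies farthest below the line and *CLB3* at 0.09 lies above it.

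Within each strain, 0.25% glucose was also set against 2% glucose. In cells overexpressing *PPZ1*, 3 of the 10 mRNAs were at least 2-fold lower in 0.25% glucose and none was higher, beside 4.76% and 1.67% of all features. They were *CLN3* (-1.27 ± 0.20), *CLB2* (-1.22 ± 0.19) and *CLN2* (-1.14 ± 0.13). *CLB6* (-0.78 ± 0.29), *CLN1* (-0.48 ± 0.12) and *CLB1* (-0.47 ± 0.12) were lower by less, and the intervals of *CLB3*, *CLB4*, *CLB5* and *SIC1* included 0. The length trend was present here too (Spearman's correlation -0.60 across 5213 features), and once it was subtracted only *CLB2* (-1.05) passed 2-fold, where 2.19% of features were lower and 1.55% higher. In control cells none of the 10 passed 2-fold, where 0.134% of features were lower and 0.897% higher. Their changes ran between -0.23 ± 0.09 (*CLB3*) and 0.41 ± 0.11 (*SIC1*), with *CLN1* at 0.29 ± 0.06, *CLB2* at 0.23 ± 0.08, *CLN2* at 0.19 ± 0.06 and *CLN3* at 0.18 ± 0.09, beside a median of 0.13 over all features.

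**Figure D5:**
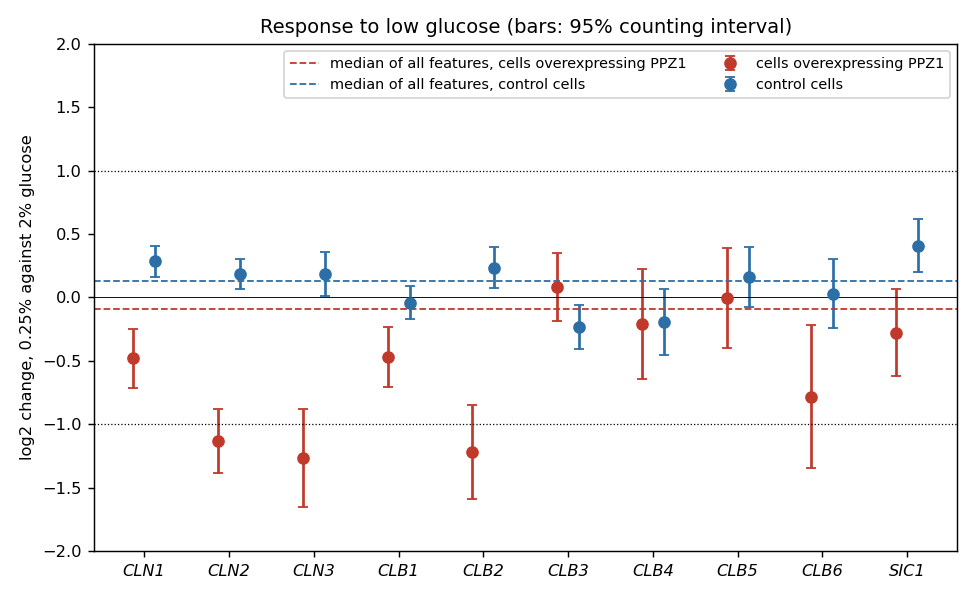
Log2 change in 0.25% against 2% glucose of each of the 10 genes in cells overexpressing *PPZ1* (red) and control cells (blue), with 95% counting intervals; dashed lines are the medians of all features in each strain (-0.09 and 0.13) and dotted lines mark 2-fold. The red points of *CLN2*, *CLN3* and *CLB2* lie below -1 and their blue points lie between 0.18 and 0.23.

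The responses to low glucose differed between the strains by -1.45 ± 0.21 for *CLB2*, -1.45 ± 0.22 for *CLN3* and -1.32 ± 0.14 for *CLN2*, cells overexpressing *PPZ1* minus control cells. The other 7 differed by less than 2-fold, and the median over all features was -0.25. A response lower by at least 2-fold was found for 9.28% of features, and higher for 0.813%. With the length trend removed, *CLB2* (-1.11) was past 2-fold, as were 2.52% of features (with 0.988% higher), and *CLN3* (-0.96) and *CLN2* (-0.87) were not. The difference was not tested, since with 1 library per condition nothing is left to estimate an error from once each strain has its own response.

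The same lists were counted at 2-fold between cells overexpressing *PPZ1* and control cells in 0.25% glucose, where 9.96% of all features were lower and the median over all features was -0.24. Of 11 G1/S factors and regulators 5 were at least 2-fold lower, with a median of -0.96 and *AZF1* at -1.41 ± 0.27, and of 9 genes of the MCM cluster 4 were, with a median of -0.99 and *MCM7*, for a helicase subunit, at -1.58 ± 0.19. By the median of ratios, *AZF1* (-1.17) and *MCM7* (-1.33) were among those that stayed past 2-fold. *SWI4* (-0.75), which is in both lists, *MBP1* (-0.85), *MSA2* (-0.82), *MCM3* (-0.89) and *MCM5* (-0.75) did not stay past it. *NDD1*, for the coactivator of *CLB2*, differed by -1.86 ± 0.24 and *FKH2* by -1.05 ± 0.17, and of the 4 G2/M factors these 2 were past 2-fold. For the 22 targets of SBF and MBF the count was 5 and the median -0.54, with *CDC9*, for DNA ligase (-1.26 ± 0.16), *YOX1*, for a repressor of early genes (-1.26 ± 0.19), and *RNR1* (-1.16 ± 0.07) among them. Of the *CLB2* cluster 2 of 16 were lower, a share near that of all features, with a median of -0.82: *CHS2*, for a chitin synthase of the septum (-1.23 ± 0.15), and *CDC5* (-1.08 ± 0.13). By the median of ratios *FKH2* (-0.80), *RNR1* (-0.90), *CHS2* (-0.98) and *CDC5* (-0.83) did not stay past 2-fold either. On that scale the *CLB2* cluster held no gene past it. The *SIC1* cluster had 4 of 15 lower, with *EGT2*, for a cell separation protein (-1.55 ± 0.11), at the end. Of Cdc28 and its regulators 1 of 8 was lower and of the cyclins of other kinases 1 of 14, again shares near that of all features, with medians of -0.69 and -0.28. Of the ubiquitin ligases and phosphatase 3 of 16 were lower, with a median of -0.50. By the median of ratios *APC1* (-1.21) of these 3 stayed past 2-fold, and *NET1* (-0.82) and *CDC27* (-0.76) did not. None of the 9 lists had a gene at least 2-fold higher on the authors' scale. *PCL5*, in the list of cyclins of other kinases, had 901 CPM, against 480 CPM in control cells, or 0.91 ± 0.04. By the median of ratios it came to 1.16, past 2-fold. On that scale the list medians were -0.72 for the G1/S factors, -0.74 for the MCM cluster and -0.29 for the targets of SBF and MBF. They were -0.57 for the *CLB2* cluster and -0.59 for the *SIC1* cluster, beside 0.01 for all features. With the length trend removed, the medians were -0.39 for the G1/S factors, -0.17 for the MCM cluster, -0.28 for the targets of SBF and MBF, -0.21 for the *CLB2* cluster and -0.42 for the *SIC1* cluster.

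The strains were also compared in the other media. In galactose, none of the 9 mRNAs above the minimum level reached a 2-fold difference between cells overexpressing *PPZ1* and control cells, beside 0.0561% of features lower and 0.0187% higher. Their differences ran between -0.52 ± 0.22 (*CLB5*) and 0.07 ± 0.17 (*CLN3*), and *CLB6*, with 12 and 8 reads, was too low to be compared. In 2% glucose, none of the 10 reached 2-fold, beside 0.0576% of features lower and 0.115% higher. There 9 of the 10 differences were below 0, as were 2981 of 5206 features. The median was -0.21 beside -0.03 for all features, or -0.16 beside 0.02 by the median of ratios. The largest differences were *CLB6* (-0.33 ± 0.16) and *CLB4* (-0.26 ± 0.15). On the authors' scale, *CLN1* with 133 CPM, against 156 CPM in control cells, and *CLB1* with 132 CPM, against 152 CPM, had differences whose counting intervals lay below 0 (-0.23 ± 0.07 and -0.20 ± 0.07). On that scale the same was true of *CLB3* and *CLB6*. *CLN2* had 168 CPM in both strains, and *SIC1* differed by 0.08 ± 0.12.

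Over all 3 media, the additive model called none of the 10 between cells overexpressing *PPZ1* and control cells. By edgeR's quasi-likelihood test 1 of them, *CLB2*, was under 0.05 before adjustment, with a log2 difference of -0.61 and a Benjamini-Hochberg adjusted p of 0.727 (0.569 to 0.967 over the alternatives), and DESeq2 called none either. Of the 5386 features tested, 0.0186% were called higher, which is *PPZ1* itself, with a log2 difference of 6.86 and an adjusted p of 0.00176 by the same test, and none was called lower. For 0.25% against 2% glucose the model also called none of the 10, with none at an unadjusted p under 0.05 and none by DESeq2, beside 0.334% of features called higher and 0.111% lower.

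The 10 mRNAs differed in how widely they ranged over the 6 libraries. *CLB6* varied 15.2-fold in CPM between its lowest and highest library, *CLN1* 10.4-fold, *CLB2* 9.88-fold and *CLB1* 6.49-fold. The lowest value of *CLB6*, in control cells in galactose, rests on 8 reads. By the range of log2(CPM + 1), between 4.66% and 8.99% of features ranged more widely than these 4. *CLN2* varied 4.29-fold, *CLN3* 2.90-fold, *SIC1* 2.80-fold, *CLB5* 2.71-fold and *CLB4* 2.37-fold. *CLB3* varied least, 1.80-fold, and 75.1% of features had a wider range of log2(CPM + 1). Among pairs of the 10, the profiles of *CLN1* and *CLB6* were closest, with a Euclidean distance of 0.44 between their centred log2(CPM + 1) values over 6 libraries. *CLB3* and *CLB4* came next at 0.45, and no counting error was worked out for these distances.

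The genes of most similar profile, by the same distance among 5372 genes, are given as a description, since with 6 libraries and 3 media many genes share a profile. For *CLN1* they were *RNR1* (0.48), YLR413W (0.48) and *YOX1* (0.54), where the median distance to all genes was 3.28. For *CLB6* they were *RNR1* (0.47), YLR413W (0.65) and *ILV5* (0.66), and for *CLB2* *UTP22* (0.36), *MSB2* (0.37) and *YOX1* (0.41). *RNR1* and *YOX1* are targets of SBF and MBF, as are *CLN1* and *CLB6*, whereas *UTP22* acts in ribosome production and *ILV5* in branched-chain amino acid synthesis. *CLN2* lay closest to *RAD53*, for a checkpoint kinase (0.21), *CLB5* to *SMC5*, for a DNA repair protein (0.15), and *CLN3* to *BCK1*, for a kinase of the cell wall pathway (0.21). *CLB1* lay closest to *EXG1*, for a cell wall glucanase (0.14), and *SIC1* to *PHO2*, for a transcription factor of phosphate metabolism (0.05).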

How the data were processed

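Total RNA of 6 cultures was extracted with the RiboPure-Yeast kit and made into TruSeq LT libraries. Per the labels, the authors aligned the reads with Bowtie2 (version and genome build not given in the sources used here). With SeqMonk 0.32.1 they took, per the file headers, the count of reads over each coding sequence and its 50 bases on either side, on the opposite strand, without duplicates, which can lower abundant and short genes most. The deposited values of the largest library are whole counts. Those of the other 5 are a signal that the authors scaled to it by the total count in features, and once divided by the factor of its library (up to 3.57) 100% of them lay within 0.01 of a whole number of reads. A read was worth 0.147 to 0.527 CPM. Of the feature names 5504 were found in R64, of which 5499 had the same coordinates. The table holds 5 emptied lines, which were not used here.

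CPM were computed from the deposited values, and log2 changes (pseudocount 1 CPM, mean of at least 10 CPM) carry Poisson standard errors. Samples were grouped by the plasmid and carbon source of their labels, and the labels do not say whether conditions came from separate cultures on separate days. As there was 1 library per condition, p-values come only from the additive model on recovered reads (edgeR 4.0.16, R 4.3.3, TMM scaling, 2 residual degrees of freedom), with DESeq2 1.42.0 as an alternative, and they measure only the spread around that model. Length trends were removed with a running median of 301 features. The scripts were tested on simulated data. Motifs, coordinates and coding identity come from RefSeq's R64.

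The members and the gene lists were chosen with earlier results of these data known. Named are all 10 genes in every comparison, *PPZ1* and label markers, of each list up to 4 genes past 2-fold, and for a gene up to 3 of closest profile. *CDC28* was named outside this rule after its values were seen. Alternatives were scaling by the upper quartile or by the median of ratios, 5 CPM as the pseudocount, no minimum or 50 CPM, 1.5-fold and 3-fold thresholds, the length trend removed, and for the model DESeq2, its size factors, no minimum, the libraries of the carbon sources compared alone, and the smallest library left out.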

Additional observations from a re-analysis of the deposited data

Results flagged for a closer look

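For 8 of the 10 genes the change in 0.25% against 2% glucose had opposite signs in cells overexpressing *PPZ1* and in control cells. The share of all features with opposite signs was not counted, so the count of 8 is not a result about these genes. Of all features, 2935 of 5213 were below 0 in cells overexpressing *PPZ1*, and 3936 of 5241 were above 0 in control cells. The difference between the responses was not tested, as each strain has 1 library per condition. It was -0.77 for *CLN1*, -1.32 for *CLN2*, -1.45 for *CLN3* and -1.45 for *CLB2*. For these 4 genes the change on the authors' scale lay beyond its counting interval in each strain, below 0 in cells overexpressing *PPZ1* and above 0 in control cells. On that scale the median of all features in control cells was itself 0.13. By the median of ratios, control cells had 176 CPM of *CLN2* in 0.25% glucose, against 168 CPM in 2% glucose. The values were 81.6 against 78.0 CPM for *CLN3*, 97.5 against 90.0 CPM for *CLB2* and 176 against 157 CPM for *CLN1*. With the length trend removed the differences of these genes came to -0.31, -0.87, -0.96 and -1.11. For the others at least 1 of the changes was within counting error of 0. Their differences were -0.81 for *CLB6*, -0.69 for *SIC1*, -0.17 for *CLB5* and 0.32 for *CLB3*, the last of which was higher in cells overexpressing *PPZ1* and lower in control cells. The median difference over all features was -0.25.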

How the results depend on the processing

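No paired analysis was possible because the labels give no replicate numbers and each condition has 1 library. The number of the 10 genes past 2-fold between cells overexpressing *PPZ1* and control cells in 0.25% glucose, 5 as reported, was 3 by the median of ratios, 3 by the upper quartile, 3 with a pseudocount of 5 CPM, 1 at 3-fold and 2 with the length trend removed. For 0.25% against 2% glucose in cells overexpressing *PPZ1*, 3 as reported became 0 at 3-fold and 1 with the length trend removed. In galactose, 7 in cells overexpressing *PPZ1* became 4 with a minimum of 50 CPM, which 6 genes passed, and 8 in control cells became 5 at 3-fold. The other 61 of 70 counts of the 10 genes stayed within 1.5 times, those of the additive model included. Of 387 single log2 changes recomputed, 358 moved by less than their counting error and 29 by more, 13 of them on removal of the length trend and 10 with the upper quartile. No change that was called turned its sign. Over all features, the lower and higher calls in 0.25% glucose, 522 and 42 as reported, were 226 and 121 by the median of ratios, 190 and 152 by the upper quartile and 123 and 65 without the length trend. Without the library of cells overexpressing *PPZ1* in 0.25% glucose, the additive model called 35 features higher and 16 lower for *PPZ1* against control, in place of 1 and 0, and 180 and 112 for low glucose, in place of 18 and 6, but none of the 10 genes in either. The lone control library in 0.25% glucose is then assumed to vary like the others. DESeq2 called 3 and 0, and 42 and 10. The cause of these changes was not tested. Depth limited *CLB6* most, with 8 to 27 reads in 3 of the libraries.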
